A study of Mus musculus with 2 samples.

Results

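The microRNAs (miRNAs) of imprinted host genes outside the large imprinted miRNA clusters were described in the adrenal glands of newborn mice. They are 6 miRNA genes, chosen by name, out of 1973 miRNA gene rows in each deposited table. Mir335 belongs to the Mest gene, Mir483 to Igf2, Mir675 to H19, Mir296 and Mir298 to the Gnas domain, and Mir1247 to Dio3os. The series is a single group of 2 libraries, each made from both adrenals of a newborn pup (postnatal day 0, inbred strain B6NCrl). The labels say that the pups came from the same pregnancy, and their sex was not collected. The labels number the pups 2 and 1 but give both the same donor identifier. If that identifier means a single animal, the spread between pup 2 and pup 1 is technical. No treatment, mutant or other tissue was part of the design, so the data answer how high each miRNA was and how far the littermates differed.

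A miRNA gene is transcribed into a hairpin, from which a short mature strand is cut that pairs with target transcripts mainly through its seed, bases 2 to 8. Imprinted genes are expressed mostly from the allele of a single parent, and many of them act on fetal growth and metabolism. Mest, Igf2 and the antisense transcript Nespas of the Gnas domain are known as paternally expressed and H19 as maternally expressed, while Dio3os lies beside Dio3, whose expression is mostly paternal. The counts of these inbred pups carry no information on the parental allele. In humans, IGF2 and miR-483 are known for their high levels in adrenocortical carcinoma.

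The mature sequences show which mature strands the counts of each gene can hold, since the deposited counts sum both arms of a hairpin and do not tell them apart. Nor do they tell mature strands from other short fragments of the same interval, such as those of H19 or Dio3os. All 6 genes matched the RefSeq table of assembly GRCm38.p6 by symbol, which gave 12 mature sequences. They are written 5′ to 3′ with the seed in capitals.
miR-335-5p: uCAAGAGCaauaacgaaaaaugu
miR-335-3p: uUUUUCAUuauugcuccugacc
miR-483-5p: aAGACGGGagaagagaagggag
miR-483-3p: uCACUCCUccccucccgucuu
miR-675-5p: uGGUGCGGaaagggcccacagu
miR-675-3p: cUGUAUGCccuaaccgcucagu
miR-296-5p: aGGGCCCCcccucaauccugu
miR-296-3p: gAGGGUUGgguggaggcucucc
miR-298-5p: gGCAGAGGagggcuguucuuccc
miR-298-3p: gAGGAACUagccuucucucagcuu
miR-1247-5p: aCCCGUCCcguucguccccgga
miR-1247-3p: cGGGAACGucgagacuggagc
No 2 of these sequences shared a seed, and none shared its seed with a mature miRNA of another gene in the table. The most similar mature miRNA of any other gene was 6 edits away (substitutions, insertions or deletions) for miR-335-3p, miR-483-3p and miR-1247-5p, and further for the other 9. Each of the 12 sequences was found in annotated mouse transcripts only within its own gene or, for miR-675 and miR-1247, also within the host RNAs H19 and Dio3os. No identical copy that could draw off reads was thus found in annotated transcripts, and the genome outside them was not searched.

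The base composition of the 6 genes differed widely. The GC share of the mature strands ran from 30.4% in miR-335-5p to 72.7% in miR-1247-5p. The hairpin of Mir335 had 42.9% GC, a higher share than 16.7% of the 869 listed miRNA genes with a RefSeq hairpin, whether or not they had a count. That of Mir1247 had 74.4%, a higher share than 98.3% of them. These hairpins are the extremes of the group, and the capitals below mark both mature arms.
Mir335: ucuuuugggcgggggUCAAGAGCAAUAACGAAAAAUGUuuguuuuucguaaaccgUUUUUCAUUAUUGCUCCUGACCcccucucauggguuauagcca
Mir1247: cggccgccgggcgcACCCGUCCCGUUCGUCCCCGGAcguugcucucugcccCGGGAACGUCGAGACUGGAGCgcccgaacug
The folding energy predicted by RNAfold was lowest for the hairpin of Mir675, at -56.0 kcal/mol or -0.67 kcal/mol per base, and 97.9% of the 869 hairpins were predicted as less stable per base. The other hairpins had from -44.3 kcal/mol in Mir335 to -33.8 kcal/mol in Mir483.

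The genes sit in different parts of their hosts in the GENCODE M21 annotation of mm10. Mir335 (ENSMUSG00000065501.1, chr6:30741299-30741396, plus strand) lies in an intron of 7 of 11 Mest transcripts, 17.8 kb from the annotated start of the gene. Several Mest transcripts begin closer to it, such as Mest-202 at chr6:30738053. Mir483 (ENSMUSG00000070140.1, chr7:142654924-142654996, minus strand) lies in an intron of 7 of 9 transcripts of Igf2, the gene of a fetal growth factor. Mir675 (ENSMUSG00000076275.1, chr7:142577064-142577147, minus strand) lies within an exon of 3 of 7 transcripts of H19, a long noncoding RNA, and within an intron of 1. Mir1247 (ENSMUSG00000080356.1, chr12:110278048-110278129, minus strand) starts 43 bases after the annotated start of the noncoding gene Dio3os. It lies wholly within an exon of 1 of 4 Dio3os transcripts and overlaps an exon of 1 more in part. Dio3, which encodes a deiodinase that inactivates thyroid hormone, begins 938 bases away on the other strand. Mir298 (ENSMUSG00000065410.1, chr2:174267504-174267585) and Mir296 (ENSMUSG00000065521.1, chr2:174267047-174267125) lie 378 bases apart on the minus strand, the strand of Nespas. No annotated host transcript covers them: they lie 13.7 and 14.1 kb beyond the annotated end of Nespas.

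**Figure D1:**
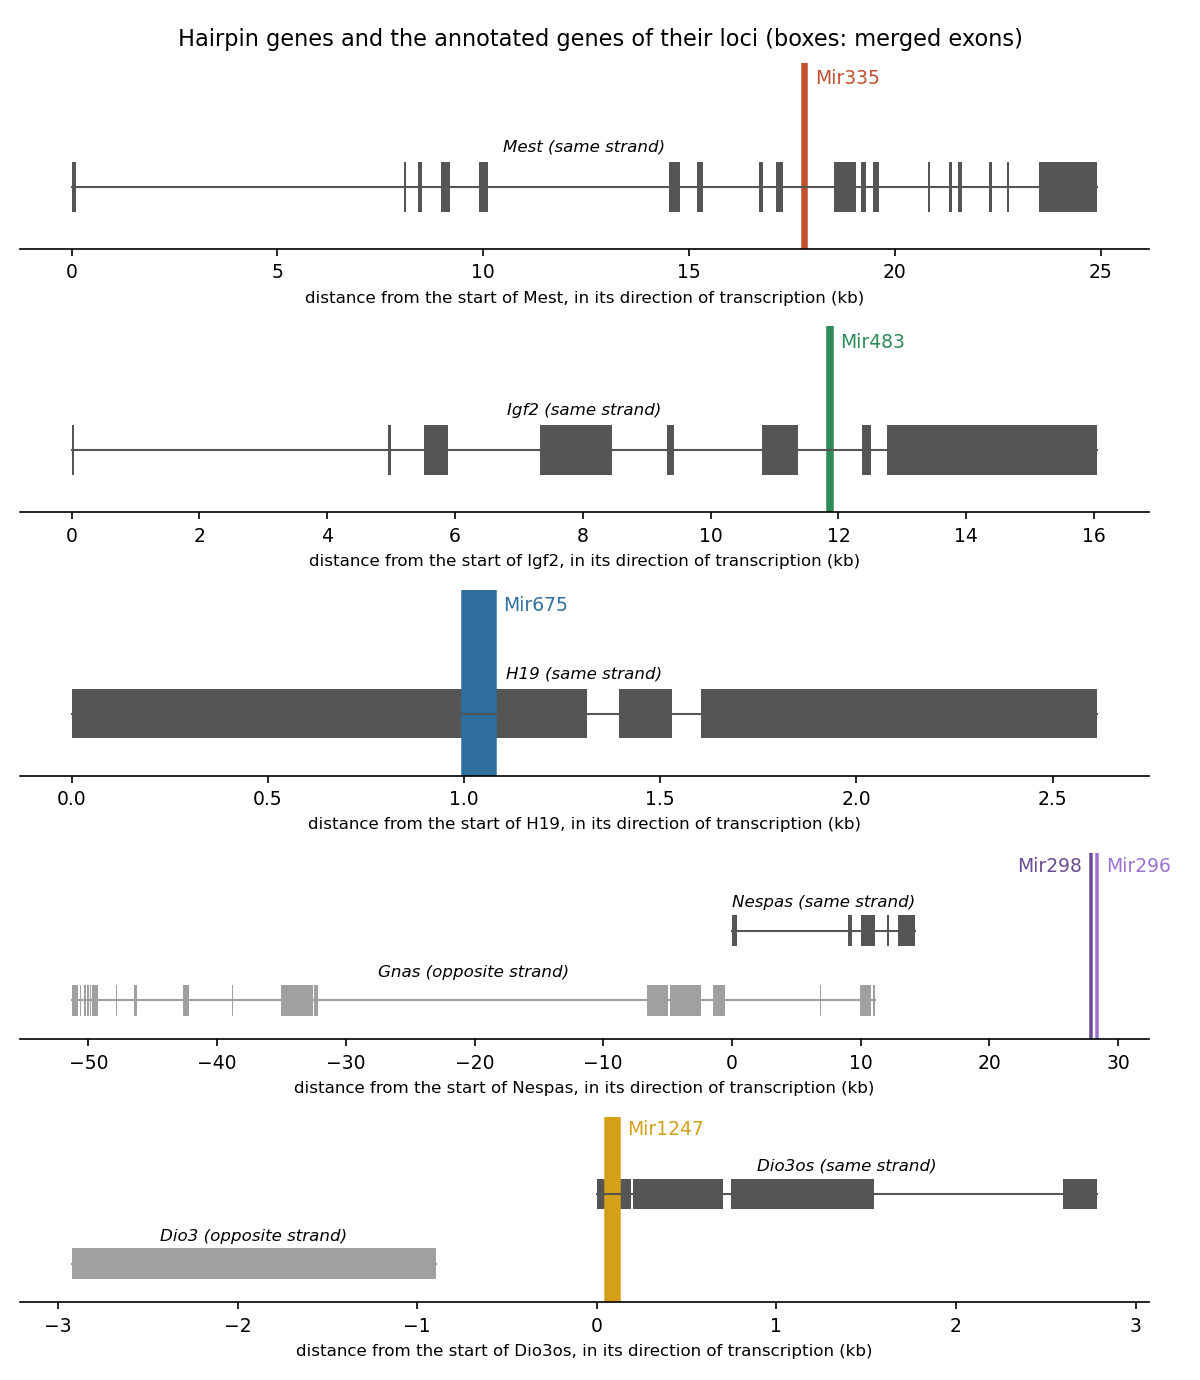
Position of each hairpin gene (coloured bars) relative to the annotated genes of its locus. The x axis is the distance in kb from the start of the named gene, in its direction of transcription, and boxes are exons merged over all transcripts. Mir335 and Mir483 fall between exons, Mir675 and Mir1247 within exons, and Mir298 and Mir296 beyond the end of Nespas.

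The libraries differed in depth, with 3327743 miRNA gene counts in pup 2 and 1131762 in pup 1. Levels are given as CPM, the count of a gene per 1000000 of these gene counts. A count of 3, the floor that a count of 0 allows, corresponds to 0.902 CPM for pup 2 and 2.65 CPM for pup 1. Multi-mapped reads, 32.2% of all reads in pup 2 and 34.9% in pup 1, are in no gene count. No miRNA defines the steroid cortex, so the tissue label was checked for the neuroendocrine medulla only, whose 4 marker genes (Mir375, Mir7b and both Mir7 genes) together had 33410.0 CPM in pup 2, against 39764.5 CPM in pup 1. Most of that sum was Mir375, with 30415 CPM in pup 2 and 37586 in pup 1, and of the 4 genes 2 were higher and 2 lower in pup 2. Both Mir7 genes share a mature strand, so their counts are partial. Markers of vessel, neighbouring or circulating cells were also present. The endothelial marker Mir126a was the highest gene of both libraries, with 102288 CPM in pup 2 and 81620.5 in pup 1. The myeloid marker Mir223 had 883 CPM in pup 2 and 704 in pup 1. The liver marker Mir122 had 4081 CPM in pup 2, against 2979 in pup 1. The 3 red cell markers summed to 337 CPM in pup 2 and 339 in pup 1. The 4 kidney markers, 2 of them higher and 2 lower in pup 2, summed to 225 CPM in pup 2 and 216 in pup 1. These close kidney sums hide opposed differences. Mir192 had 158 CPM in pup 2 and 101 in pup 1, while Mir215 had 23.7 CPM in pup 2 and 72.5 in pup 1. The 5 brain markers measured, all genes with several copies whose multi-mapped reads are not counted, were at 0 in both.

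All 6 genes had counts in both pups, and 5 of them reached 10 CPM or more in both, against 13.9% of all 1973 gene rows. Together they held 4.12% of miRNA gene counts in pup 2 (95% Clopper-Pearson interval 4.09 to 4.14) and 3.86% in pup 1 (3.83 to 3.90), a mean of 3.99% ± 0.178 (SD, n = 2). All intervals in this account cover counting error only and hold no spread between pups or libraries. Reads copied by PCR are not independent molecules, so the intervals can be too narrow even for that error. Mir335 alone gave 87.5% of the counts of the 6 genes in pup 2 and 80.7% in pup 1. The other 5 genes together held 0.516% of miRNA gene counts in pup 2 and 0.744% in pup 1.

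Mir335, the intronic miRNA of Mest, was by far the highest of the group. It had 36000.4 CPM in pup 2 from 119800 counts and 31202 CPM in pup 1 from 35313 counts, a mean of 33601 ± 3393 CPM (SD, n = 2). It ranked 8 among all miRNA genes in pup 2 and 11 in pup 1. Multi-mapped reads are in no gene count, so genes with several copies can be counted too low. The rank and share of Mir335 can then be too high. In human breast cancer cells miR-335 is known as a suppressor of metastasis. Its neighbours in rank by mean level were Mir10b and Mir375 above and Mir22 and Mir26b below. The values of Mir375 (30415 CPM in pup 2 and 37586 in pup 1), Mir10b (35221 in pup 2 and 33671 in pup 1) and Mir22 (32183 in pup 2 and 31934 in pup 1) fell within or overlapped the range of Mir335. Their order is therefore not resolved by these libraries, while Mir26b, with 27871 CPM in pup 2 and 25231 in pup 1, lay below Mir335 in both. The nearest miRNA gene on the chromosome, Mir29a, lies 321 kb away on the other strand and had 769 CPM in pup 2 and 603 in pup 1.

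The genes of the Gnas domain came next. Mir298, known in mouse cells for repressing the secretase gene Bace1, had 2617 CPM in pup 2 from 8709 counts and 4390.5 CPM in pup 1 from 4969 counts. Mir296, known in mouse embryonic stem cells for sites in the coding sequence of Nanog, had 1609.5 CPM in pup 2 from 5356 counts and 2380.4 CPM in pup 1 from 2694 counts. Means were 3504 ± 1254 CPM for Mir298 and 1995 ± 545 CPM for Mir296 (SD, n = 2 each), and each gene was lower in pup 2. Mir298 was the higher of the 2 in both pups, with 1.63 counts for each count of Mir296 in pup 2 (95% counting interval 1.57 to 1.68) and 1.84 in pup 1 (1.76 to 1.93). The lowest value of Mir298 was above the highest of Mir296.

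Of the linked H19 and Igf2 genes, Mir483 was well measured and Mir675 was near the lower limit. Mir483, which rises with IGF2 in human Wilms tumours, had 794 CPM in pup 2 from 2643 counts and 648 CPM in pup 1 from 733 counts, a mean of 721 ± 104 CPM (SD, n = 2). The genes ranked beside it, Mir223, Mir137, Mir101b and Mir181d, had means from 694 to 794 CPM and log2 ratios of pup 2 over pup 1 from -0.27 to 0.67. Mir675, known in mouse placenta for limiting growth and repressing Igf1r, had 15.9 CPM in pup 2 from 53 counts and 7.07 CPM in pup 1 from 8 counts. Its 95% intervals were 11.9 to 20.8 CPM in pup 2 and 3.05 to 13.9 CPM in pup 1, and it was the single member under 10 CPM in a pup. The genes lie 77.8 kb apart on the same strand. Mir483 had 49.9 counts for each count of Mir675 in pup 2 (95% counting interval 38.0 to 66.8) and 91.6 in pup 1 (46.3 to 213). The ratio in pup 2 was 0.544 times that in pup 1 by the conditional odds ratio, with an exact 95% interval from 0.222 to 1.16, so a difference between the pups was not detectable at this depth.

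Mir1247, at the far end of the Dlk1-Dio3 domain, was the gene of the group whose level differed most between the libraries, by ratio. Each pup had a single library, so whether the animal or the library gave this difference was not tested. It had 125 CPM in pup 2 from 417 counts and 16.8 CPM in pup 1 from 19 counts. The mean was 71.0 ± 76.7 CPM (SD, n = 2), with an SD above the mean itself. Its rank was 180 in pup 2 and 258 in pup 1. In human cells miR-1247 is known for repressing SOX9, a cartilage regulator.

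**Figure D2:**
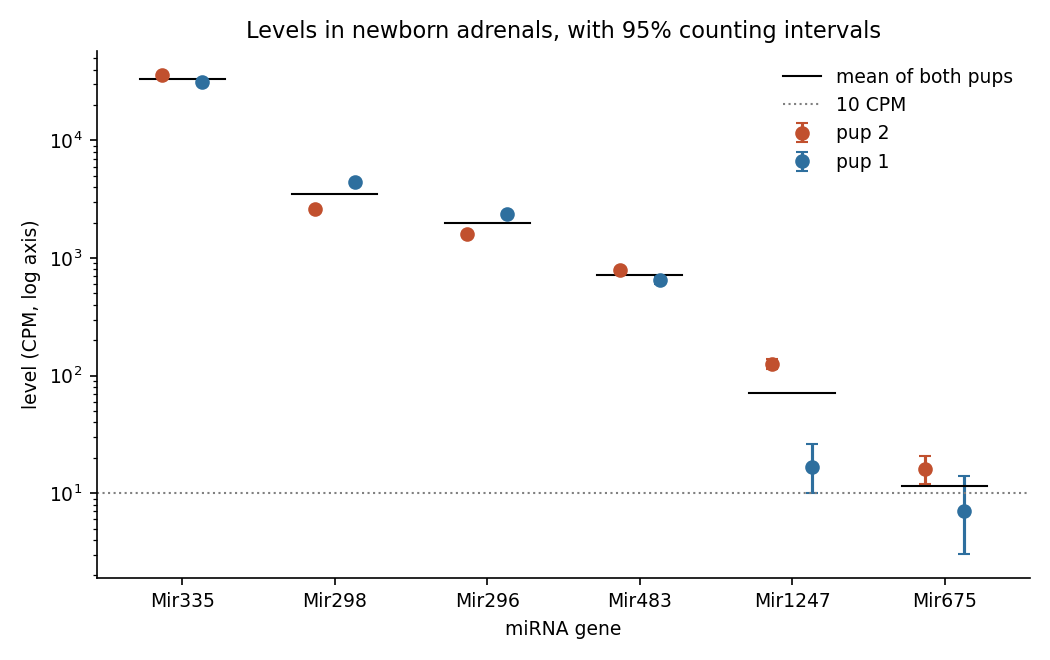
Level of each gene on a log axis of CPM, with a point for pup 2 (left) and pup 1 (right), 95% counting intervals and a bar at the mean. Mir335 lies at 36000.4 CPM in pup 2 and 31202 in pup 1, Mir675 lies near 10 CPM, and the points of Mir1247, at 125 CPM in pup 2 and 16.8 CPM in pup 1, stand furthest apart.

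The order of levels was Mir335, Mir298, Mir296, Mir483, Mir1247 and Mir675 in both pups. No pair of neighbours in this order had overlapping values over the pups. The closest neighbours by mean were Mir298 and Mir296, with a ratio of 1.76, and the mean of Mir335 was 9.59 times that of Mir298. The closest single values were those of Mir675 in pup 2, at 15.9 CPM, and of Mir1247 in pup 1, at 16.8 CPM, each within the counting interval of the other. The highest gene was 2260.4 times the lowest in pup 2 and 4414 times in pup 1. CPM counts whole reads of mature size and was not divided by hairpin length, which ran from 73 to 98 bases. Mature miRNAs of different sequence can be captured with different efficiency in such libraries, and the part of this in the order was not tested.

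**Figure D3:**
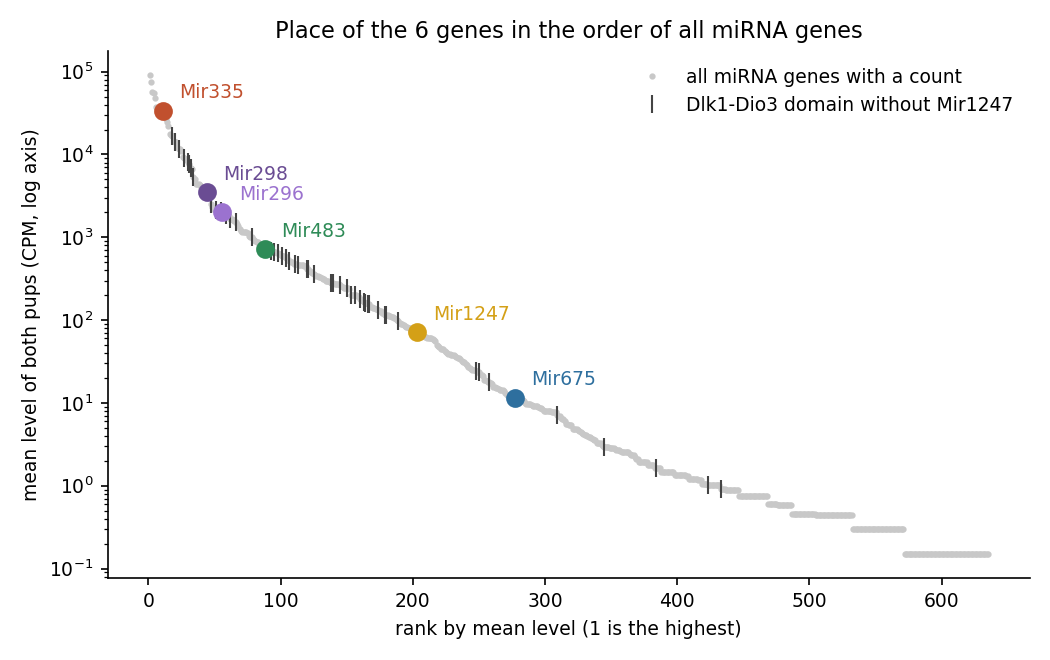
Mean level of every miRNA gene with a count (grey) against its rank, on a log axis, with the 6 genes coloured and the other genes of the Dlk1-Dio3 domain as ticks. Mir335 stands at rank 11, Mir298 at 44, Mir296 at 56, Mir483 at 88, Mir1247 at 203 and Mir675 at 277.

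The littermates were then compared gene by gene, as a log2 ratio of pup 2 over pup 1 with 1 CPM added to each value. With a single library per pup there is no replicate of a pup, so the differences carry no test beyond the counting interval, and 2-fold was used as the threshold. The CPM of Mir1247 in pup 2 was 7.46 times that in pup 1, with a 95% counting interval from 4.72 to 12.5 and a log2 ratio of 2.83. The CPM of Mir675 was 2.25 times as high in pup 2, with an interval from 1.06 to 5.49 and a log2 ratio of 1.07. These were 2 of the 6 genes, against a background of 5.28% for either direction among the 284 genes tested, those whose mean was at least 10 CPM, 3.52% higher and 1.76% lower. Mir675 reached that mean through pup 2 and passed the threshold by little, and with 5 CPM added its log2 ratio was 0.79.

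The other 4 genes stayed within 2-fold. Their counting intervals did not include a ratio of 1, but at high counts such intervals exclude even small ratios. The share of the 284 genes with such an interval was not computed. Mir335 was 1.15-fold (1.14 to 1.17) and Mir483 1.23-fold (1.13 to 1.33) higher in pup 2. Mir298 was lower in pup 2, with a ratio of 0.596 (0.576 to 0.617), and so was Mir296, with a ratio of 0.676 (0.645 to 0.708). An absolute log2 ratio at least as large as that of Mir335 was found in 64.1% of the 284 genes, as large as that of Mir483 in 53.5%, of Mir296 in 20.4% and of Mir298 in 11.3%. The median log2 ratio of the 6 genes was 0.25, with 4 higher in pup 2, and that of all 284 genes was 0.08, with 165 higher in pup 2.

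**Figure D4:**
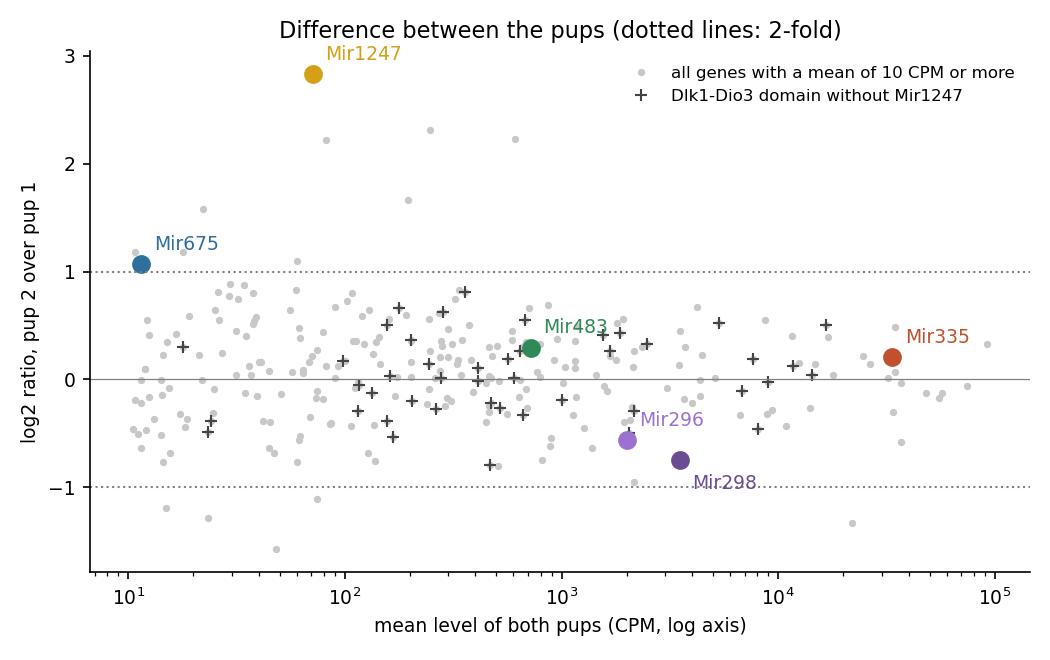
Log2 ratio of pup 2 over pup 1 against mean level on a log axis for the 284 tested genes (grey), with the 6 genes coloured, the other genes of the Dlk1-Dio3 domain as crosses and 2-fold as dotted lines. Mir1247 lies at 2.83, above every other gene shown, Mir675 at 1.07, and Mir298 and Mir296 lie together below 0.

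The paired genes of the Gnas domain differed between the pups in the same direction but not to the same extent. By the conditional odds ratio, Mir298 over Mir296 in pup 2 was 0.882 times that in pup 1 (exact 95% counting interval 0.832 to 0.935). Their summed level was 4227 CPM in pup 2, against 6771 CPM in pup 1, a ratio of 0.624 (95% counting interval 0.607 to 0.642). Genes at similar levels did not all share this direction. Beside Mir298, the log2 ratios were -0.18 for Mir34c, 0.45 for Mir122, 0.13 for Mir17 and -0.08 for Mir214, against -0.75 for Mir298. Beside Mir296 they were -0.38 for Mir676, -0.50 for Mir433, -0.40 for Mir361 and 0.56 for Mir7b, against -0.56 for Mir296. Of these, Mir433 was closest to Mir296 in both level and ratio.

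The 2 genes ranked just above Mir1247 and the 2 just below it differed little between the pups. Mir92b had 71.2 CPM in pup 2 and 76.9 in pup 1, and Mir138-2 had 68.8 CPM in pup 2 and 77.8 in pup 1. Mir92-2 had 76.3 CPM in pup 2 and 65.4 in pup 1, and Mir877 had 61.0 CPM in pup 2 and 77.8 in pup 1. Their log2 ratios ran from -0.35 to 0.22. Other genes near this level differed more: Mir200b, at rank 196, had a log2 ratio of 2.22, and Mir215, at rank 219, had -1.57. Mir138-2 and Mir92-2 share a mature sequence with other loci, so their counts are partial. Beside Mir675, the genes Mir1249, Gm26117, Mir19a and Mir3475 had log2 ratios from -0.22 to 0.09. The gene nearest to Mir1247 in the genome that was tested, Mir3072, lies 530.1 kb away on the other strand and had 128 CPM in pup 2 and 140 CPM in pup 1. A closer row, Gm27299, had no count in either pup. Some marker genes of other cell types also differed between the libraries. The 9 striated muscle markers together had 423 CPM in pup 2, against 87.5 CPM in pup 1, nearly all of it from Mir206, with 411 CPM in pup 2, against 82.2 CPM for pup 1. Apart from Mir206, the 5 markers with a count had at most 12 counts in pup 2 and 3 in pup 1, too few to give a direction. Mir1a-1, Mir133a-1 and Mir133a-2 were at 0 in both, but they too are genes with several copies whose multi-mapped reads are not counted. The 7 epithelial markers, none of them at 0, together had 1309 CPM in pup 2, against 947 CPM in pup 1. The highest of them, Mir203, was lower in pup 2, with 667 CPM against 709.5 CPM in pup 1, while the other 6 were higher in pup 2 and together had 642 CPM there, against 238 CPM in pup 1. Their part in the differences of Mir1247 and Mir675 was not tested. In such whole-gland samples, fewer cells of a type and less RNA per cell cannot be told apart.

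**Figure D5:**
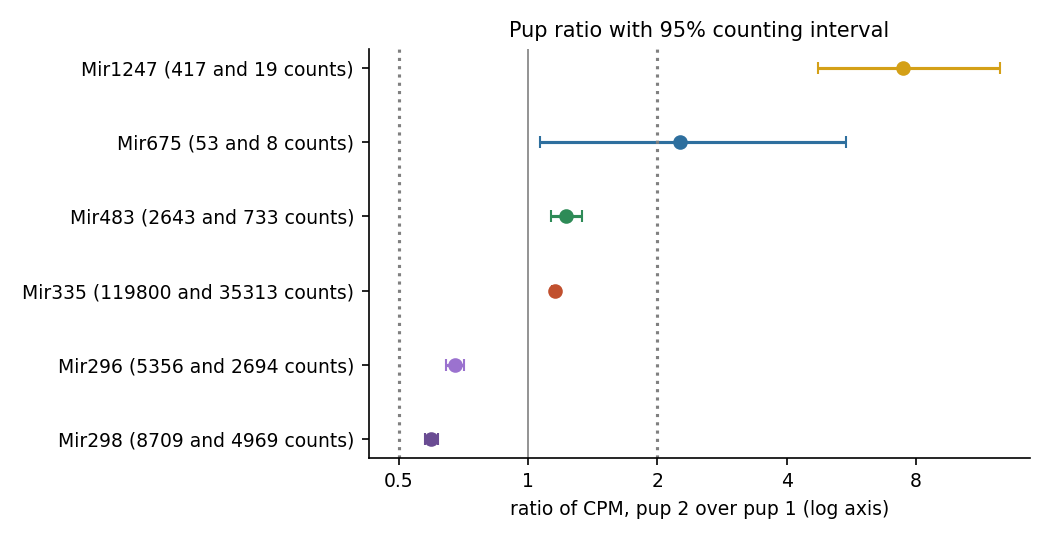
Ratio of CPM in pup 2 over pup 1 for each gene on a log axis with its 95% counting interval, the counts of pup 2 and pup 1 beside each name, and 2-fold as dotted lines. The interval of Mir1247 lies wholly above 2, that of Mir675 spans 2, and the other 4 lie between 0.5 and 2.

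Other imprinted miRNA genes give the scale of these values. The other 58 gene rows between Dlk1 and Dio3 lie in the domain that ends with Mir1247. They held 10.5% of miRNA gene counts in pup 2 and 9.71% in pup 1. Against 635 of all 1973 gene rows with a count in either pup, 49 of these 58 had one. Mir411 led them at 16636 ± 4085 CPM, ahead of Mir127 at 14265 ± 284 CPM and of Mir487b at 11750.0 ± 729 CPM (SD, n = 2 each), all below Mir335. None of the 44 tested among them passed 2-fold, against 15 of all 284 tested genes (5.28%), which is a small share too. The log2 ratios of these 44 ran from -0.79 to 0.81 with a median of 0.02. Rows of the domain with few counts were not tested. Among those, Mir299b had a log2 ratio of 1.49 from 6 counts in pup 2 and 0 in pup 1. Gm27379 had -1.09 from 1 count in pup 2 and 2 in pup 1. The 107 gene rows within Sfmbt2 and on its strand held 0.219% in pup 2 and 0.216% in pup 1. Many of these rows are near-identical copies whose multi-mapped reads are not counted. Mir467d, Mir467e and Mir467c led them with 796 ± 8.36, 471 ± 3.12 and 384 ± 33.2 CPM. Among the 69 genes of these groups and the 6 with a count, Mir335 ranked 1, Mir298 ranked 10, Mir296 ranked 14, Mir483 ranked 20, Mir1247 ranked 52 and Mir675 ranked 56.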

How the data were processed

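Small RNA below 30 nucleotides, per the labels, was sequenced from both adrenals of 2 newborn pups. The deposited values are raw, unscaled read counts for each miRNA gene, 1 table per library. Per the notes deposited with each library, the authors used mm10 and the GENCODE M4 annotation. Aligner, version and trimming: not given in the sources used here. Each table's 3 count columns have the layout of unstranded, same-strand and opposite-strand counts, and the same-strand column was used. It held 52.7% of the reads of pup 2 and 50.4% of those of pup 1. Rows that name no gene (multi-mapped, unmapped or outside any gene: 32.2%, 11.2% and 3.86% in pup 2, and 34.9%, 10.6% and 4.03% in pup 1) were left out of library sums.

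CPM was computed over all gene rows, and of 1973 rows 1894 matched a GENCODE M21 symbol by identifier without version. Shares have exact Clopper-Pearson intervals and ratios exact conditional Poisson intervals, at 95%, from scipy 1.17.1. No p-value was computed. The ratio code was tested on simulated data. Alternatives used TMM factors (edgeR 4.0.16) and DESeq2 1.42.0 size factors. Hairpins were folded with RNAfold 2.7.2. Sequences are RefSeq's on GRCm38.p6.

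The members, lists and thresholds were chosen with earlier results of these data known. Named were the 6 genes, the 2 genes ranked above and below each by mean CPM, the nearest miRNA gene in the genome, the 3 highest genes of each other imprinted list, genes sharing a seed at 10 CPM or more, and tissue markers. The other imprinted lists are all miRNA gene rows between Dlk1 and Dio3 on either strand, without Mir1247, and those within Sfmbt2 on its strand.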

Additional observations from a re-analysis of the deposited data

How the results depend on the processing

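The direction of every pup difference of the 6 genes was kept under the 6 alternatives tried for each: TMM factors, DESeq2 size factors, a prior of 5 or 0.1 CPM, the unstranded column, and all reads as denominator. A change of prior could not have reversed a direction. The unstranded column changed only the library sums, since the 6 genes had 0 opposite-strand counts. TMM raised pup 2 over pup 1 by 0.11 for all genes before the prior, on the log2 scale, and DESeq2 by 0.03. Mir335 then had 0.31 with TMM and 0.24 with DESeq2. With TMM, the ratios were -0.46 for Mir296 and -0.64 for Mir298. With all reads as denominator Mir335 had 0.27 and Mir298 -0.68. With a prior of 5 CPM the log2 ratio of Mir675 was 0.79, under 2-fold, which left 1 of the 6 genes past it, while Mir1247 had 2.58. Without a minimum level, 85 of 635 genes passed 2-fold instead of 15 of 284, as genes with few counts then entered.

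Levels scale with the denominator. Per 1000000 of all reads in the table, the means were 17352 for Mir335, 1796 for Mir298, 1024 for Mir296 and 373 for Mir483, and the 6 genes held 2.06%. Without the 10 most abundant genes in the denominator, they were 67614 for Mir335, 7067 for Mir298, 4022 for Mir296, 1450.4 for Mir483 and 23.1 for Mir675, and the share was 8.03%. The unstranded column moved the Dlk1-Dio3 share to 11.2% and the Sfmbt2 share to 0.211%. Of 91 alternative values, 69 stayed within the spread or interval of the main value or, for counts of genes, within 1.5 times it. This tally is no measure of stability, because the values with either pup left out lie within the SD of 2 pups by construction. A wide SD also lets large shifts pass. Mir1247 had a mean of 37.3 with all reads as denominator, against 71.0 CPM, and was still within its SD. Leaving out either pup gives the values of the other, such as 125 CPM (pup 2) or 16.8 CPM (pup 1) for Mir1247, and 15.9 CPM (pup 2) or 7.07 CPM (pup 1) for Mir675. Depth limits Mir675, with 8 counts in pup 1, and Mir1247, with 19. No paired analysis was possible because there is a single group.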

Other observations

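The opposite-strand column, which no comparison used, held 104740 counts over all genes in pup 2 and 39345 in pup 1. All 6 genes had 0 opposite-strand counts in both pups. Of the 284 genes whose mean was at least 10 CPM, 21 (7.39%) had an opposite-strand count in either pup, so a value of 0 is common among all genes.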
